A study of Saccharomyces cerevisiae with 24 samples.

Results

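The genes described here are 37 budding yeast genes that serve the start of S phase: G1/S cyclins, nucleotide supply, DNA polymerases, the MCM helicase, the single-strand binding complex RPA, cohesin, and replication fork and repair factors. They were taken by name from a fixed list, and each of the 37 matched 1 of the 7126 rows of the count table. All 37 were among the 6089 genes with enough counts to be tested. PolyA RNA was sequenced from 2 haploid strains in 24 libraries, 3 for each of 8 groups. Both strains carried MATa his3delta1 ura3delta0 leu2delta0 lys2delta0, the deletion crz1delta::LEU2 and a HYG-TEFp-GFP(Y66F) insertion on chromosome VI, in the BY4741 background. The strain called crz1 had no further deletion, and the strain called crz1 cnb1 also carried cnb1delta::KanMx. Samples came from untreated cultures (0 h) and from cultures kept for 12, 48 or 72 h in medium with 200 mM CaCl2, with ammonium chloride as the nitrogen source. The cultures were diluted every 12 h. Every library therefore lacks Crz1, the transcription factor that calcineurin activates, and no strain with CRZ1 is compared here. The groups hold untreated libraries at 0 h only, so time in culture and repeated dilution cannot be told apart from CaCl2. The labels speak of a time course run in triplicate and say no more about how the replicates were grown, so p-values measure the spread between these libraries.

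In budding yeast, the commitment to division at the end of G1 is made by Cln cyclins bound to the kinase Cdc28. They release the transcription factors SBF (Swi4 with Swi6) and MBF (Mbp1 with Swi6), which switch on the genes for S phase cyclins, nucleotide synthesis and replication proteins. SBF is known to bind a promoter element called SCB and MBF an element called MCB. Calcineurin is a phosphatase switched on by calcium, and Cnb1 is its regulatory subunit. In a growing culture that is not synchronised, the RNA level of such a gene depends on the share of cells in G1 and S phase and on the level per cell, and these cannot be told apart here.

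The upstream sequences show which of the 2 elements the genes carry. From RefSeq build R64, the 300 bases from 250 before to 50 after each gene's annotated start were searched on both strands for MCB (ACGCGT) and SCB (CNCGAAA). An MCB and an SCB can share at most 1 base, and SCBs on opposite strands can overlap. MCB was found for 15 of the 37 genes (40.5%) and for 184 of 6001 protein-coding genes (3.07%). SCB was found for 12 of 37 (32.4%) and for 829 of 6001 (13.8%). Of the 8 polymerase, primase, ligase and nuclease genes, 7 (87.5%) held an MCB, and of the 7 helicase genes 5 (71.4%) held an SCB. The RefSeq gene starts are start codons, and only 1 of the 8 cyclin-group genes held either element in this window. The search was therefore repeated over 800 bases upstream, a window chosen after the first result was seen. There SCB was found for 6 of 8 cyclin-group genes, for 24 of the 37 genes (64.9%) and for 29.9% of 5997 promoters, and MCB for 23 of 37 (62.2%) and for 7.62%. A match is a run of letters and not a shown binding site.

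The stretches below are those of the genes on which the results turn, printed in the direction of transcription with each MCB or SCB match, on either strand, in capitals. They are CLN2 (chrXVI:67031-67230, minus strand), PCL1 (chrXIV:87560-87759, plus), CLB6 (chrVII:706715-706914, minus), RNR1 (chrV:298569-298768, plus), RNR2 (chrX:392159-392358, plus), RNR4 (chrVII:856302-856501, minus), POL12 (chrII:153561-153860, minus) and MCM7 (chrII:625522-625821, plus). Within the printed bases CLN2 and PCL1 carry clusters of SCBs, CLB6 carries MCBs, and RNR1 carries MCBs and an SCB. RNR2 and RNR4 carry a single SCB each there, and they are shown because their levels moved against that of RNR1. POL12 and MCM7 stand for the polymerase and helicase groups.
CLN2: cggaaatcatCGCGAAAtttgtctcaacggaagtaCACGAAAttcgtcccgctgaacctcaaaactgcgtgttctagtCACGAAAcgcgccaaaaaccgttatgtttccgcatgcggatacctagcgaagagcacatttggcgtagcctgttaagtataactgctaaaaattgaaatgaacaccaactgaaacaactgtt
PCL1: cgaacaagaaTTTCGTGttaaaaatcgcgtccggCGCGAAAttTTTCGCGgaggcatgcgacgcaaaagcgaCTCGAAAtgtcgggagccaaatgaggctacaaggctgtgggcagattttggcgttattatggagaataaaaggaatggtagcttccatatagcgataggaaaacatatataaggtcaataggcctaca
CLB6: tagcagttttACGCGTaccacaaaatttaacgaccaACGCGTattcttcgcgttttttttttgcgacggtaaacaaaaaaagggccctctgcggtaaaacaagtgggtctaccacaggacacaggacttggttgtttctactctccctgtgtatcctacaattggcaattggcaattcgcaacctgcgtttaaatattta
RNR1: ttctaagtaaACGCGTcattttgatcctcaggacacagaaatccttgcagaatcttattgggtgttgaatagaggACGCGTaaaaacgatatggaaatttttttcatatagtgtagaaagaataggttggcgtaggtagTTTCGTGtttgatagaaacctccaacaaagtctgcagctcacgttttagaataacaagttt
RNR2: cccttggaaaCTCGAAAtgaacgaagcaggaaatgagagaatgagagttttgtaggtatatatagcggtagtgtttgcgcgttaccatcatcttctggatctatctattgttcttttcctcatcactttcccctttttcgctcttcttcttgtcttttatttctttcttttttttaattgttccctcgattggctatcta
RNR4: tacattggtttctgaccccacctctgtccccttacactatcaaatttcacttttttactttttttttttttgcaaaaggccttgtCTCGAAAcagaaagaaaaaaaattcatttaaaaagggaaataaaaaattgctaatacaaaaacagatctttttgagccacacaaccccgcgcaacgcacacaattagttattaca
POL12: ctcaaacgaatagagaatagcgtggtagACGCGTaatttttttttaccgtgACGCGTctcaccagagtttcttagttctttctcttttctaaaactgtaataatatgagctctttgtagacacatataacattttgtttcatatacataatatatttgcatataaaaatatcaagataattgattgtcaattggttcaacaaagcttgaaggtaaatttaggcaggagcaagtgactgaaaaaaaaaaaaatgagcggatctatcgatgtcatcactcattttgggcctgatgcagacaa
MCM7: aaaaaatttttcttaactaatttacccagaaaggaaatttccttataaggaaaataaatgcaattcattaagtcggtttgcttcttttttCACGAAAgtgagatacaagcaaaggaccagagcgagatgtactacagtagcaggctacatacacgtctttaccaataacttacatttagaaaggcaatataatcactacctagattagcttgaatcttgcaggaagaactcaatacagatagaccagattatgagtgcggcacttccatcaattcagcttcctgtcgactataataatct

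Total counts lay between 21582317 and 22016465 per library. The reads assigned to CRZ1 numbered 0 to 4 per library. For CNB1 they numbered 1581 to 3043 in libraries of crz1, but 3 to 22 in those of crz1 cnb1. The 7 genes specific to mating type a, the labelled type, were summed as counts per 1e6 of the library total (CPM). They gave 3934 to 4955 in untreated libraries and 969 to 1858 in treated ones, and the alpha-specific genes 21.9 to 43.0. All 7 a-specific genes were called lower at 72 h in both strains, and their part in the results below was not tested. A few libraries stood apart on the first principal component of all genes. Replicate 1 of both untreated groups had scores of -21.1 and -19.5, while replicates 2 and 3 of those groups had -38.0 to -39.8, and crz1 48 h replicate 1 had 23.6, while its replicates 2 and 3 had -0.32 and -3.05. In the untreated groups, replicate 1 was the highest of the 3 libraries for 34 of the 37 genes in crz1 and for 32 in crz1 cnb1. Among all tested genes the shares were 47.5% and 39.5%. The median gene of the 37 was 1.41 and 1.36 times as high there as the mean of replicates 2 and 3. Replicate 1 was also highest among treated crz1 libraries, for 34 of 37 genes at 12 h (41.9% of all genes), with a ratio of 1.38, and for 27 of 37 at 48 h (41.85% of all genes), with a ratio of 1.52. In crz1 cnb1 it was highest for 24 and 23 of 37 at 12 and 48 h, with ratios of 1.11 and 1.08. At 72 h it was highest for 10 genes in crz1 and 13 in crz1 cnb1. Counts of genes called against 0 h are given with and without replicate 1 of both untreated groups, an alternative chosen after seeing the data. In that alternative replicate 1 of the treated groups stays in.

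Levels below are CPM scaled by TMM size factors (normalised CPM), replicates in the order 1, 2, 3. Changes are log2 ratios from edgeR's quasi-likelihood fit with their standard errors, n = 3 libraries per group, and a gene is called when its Benjamini-Hochberg adjusted p over all 6089 genes is under 0.05. This fit, the main fit, held every library, with no replicate block and no offset for gene length. Calls below are those of the main fit unless another setting is named. In crz1, 7 genes were called higher and 3 lower at 12 h, where 17.6% of all tested genes were called higher and 14.4% lower. At 48 h the counts were 7 higher and 2 lower (19.8% and 13.7% of all genes). At 72 h 16 of 37 were higher and 2 lower (22.6% and 19.8% of all genes). In crz1 cnb1, 9 were higher and 3 lower at 12 h (12.9% and 7.67% of all genes). At 48 h 8 were higher and 3 lower (14.3% and 9.54%), and at 72 h 14 were higher and 2 lower (20.1% and 15.7%). The 7 higher genes of crz1 at 12 h and the 7 at 48 h, each 18.9% of the 37, thus stood near the share of all genes. The median change of the 37 at 72 h was 0.43 in crz1 and 0.49 in crz1 cnb1, against -0.03 and 0.01 for all genes. At 12 and 48 h it was 0.09 and 0.29 in crz1 and 0.25 and 0.35 in crz1 cnb1, against -0.00, 0.07, -0.00 and 0.06. In crz1 its sign at the earlier times depended on the scale, since with limma on log2(TPM + 1) it was -0.07 and -0.05. At 12 h in crz1 it was also below 0 without 0 h replicate 3 (-0.09) and without 12 h replicate 1 (-0.18). On the log2(TPM + 1) scale the median over all genes was itself -0.16 at 12 h and -0.25 at 48 h, and 2 genes were called higher and 5 lower in crz1 at 48 h. The share of all genes called on that scale is not given.

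Without replicate 1 of both untreated groups the counts of genes called higher rose to 10, 17 and 23 in crz1 and to 15, 19 and 20 in crz1 cnb1 at 12, 48 and 72 h. The genes called lower were then 2 at each time in crz1, and 3, 3 and 2 in crz1 cnb1. All genes called higher with every library were called higher again, and of the genes called lower only RFA1 at 12 h in crz1 was lost. The libraries left out were the highest of their group for most genes described here. Leaving them out lowered the untreated levels of those genes and so favoured calls of a rise in advance. The kept and gained rises, including those of single genes below, are therefore no test of how firm the rises are. With the replicate number as a block, crz1 at 12 h, where the numbers paired the libraries, gave 10 higher and 3 lower. Single libraries moved several of these counts. In crz1 at 12 h, 3 genes were higher without 0 h replicate 2 or replicate 3, and 4 without 12 h replicate 1. In crz1 at 48 h, 16 were higher without 0 h replicate 1, and 4 were lower without 48 h replicate 1. In crz1 cnb1 at 12 h, leaving out 0 h replicate 2 left 4 genes higher, leaving out 0 h replicate 3 left 2, and leaving out 12 h replicate 1 left 1 lower. At 48 h in the same strain, 16 genes were higher when 0 h replicate 1 was left out, 2 when 0 h replicate 2 was, and 1 when 0 h replicate 3 was. The count was 3 when 48 h replicate 1 was left out and 4 when its replicate 3 was. No single library moved the counts at 72 h by over 1.5 times. Of the 16 genes higher in crz1 at 72 h, 11 were also higher in crz1 cnb1 (68.8% of 16, 78.6% of 14). The matching overlap among all tested genes is not given, so these shares cannot be read as particular to the genes described here. RNR2 and RNR4 were the 2 lower genes in both strains.

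**Figure D1:**
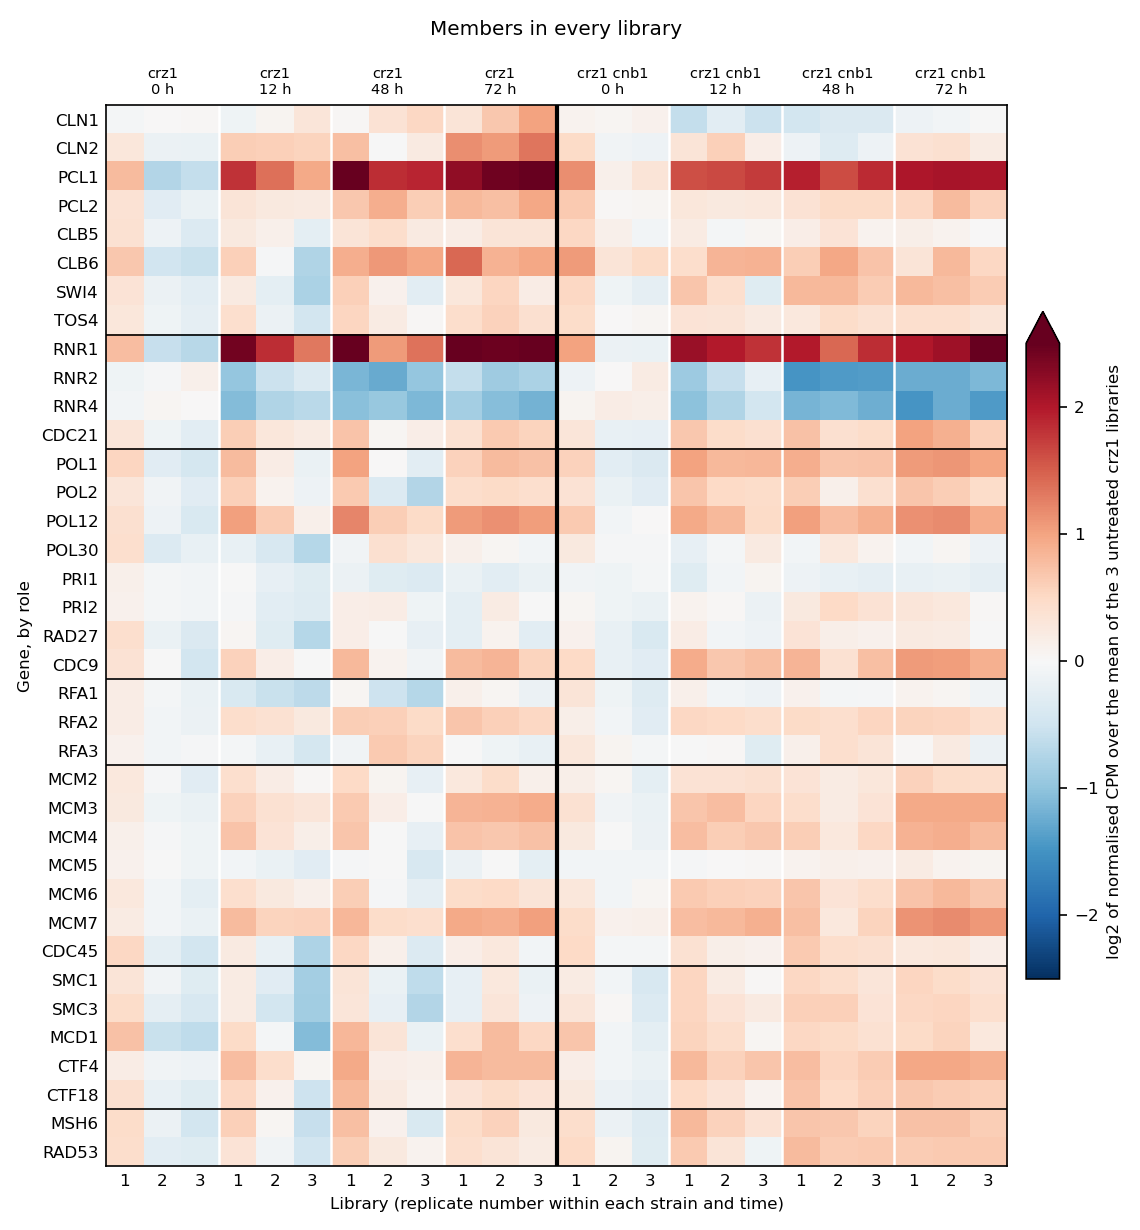
Level of each of the 37 genes in each of the 24 libraries, as log2 of normalised CPM over the mean of the 3 untreated crz1 libraries; columns are libraries by strain and time, rows are genes by role, and values above 2.5 share the darkest red. PCL1 and RNR1 are red in every treated library, RNR2 and RNR4 are blue in every treated library, and replicate 1 of the untreated groups is redder than replicates 2 and 3 for most genes.

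Among the G1/S cyclins and their regulators, 6 of 8 were called higher in crz1 at 72 h, where 22.6% of all genes were, and 1 of 8 (12.5%) in crz1 cnb1, where 20.1% were. These counts are not a test of a difference between the strains. The difference of changes at 72 h, tested directly, was called for 0 of 37 genes by edgeR (8 at an unadjusted p under 0.05) and for 2 by DESeq2. The group's median change was 0.77 and 0.20. The largest change in the group was that of PCL1, a cyclin of the kinase Pho85 that acts in G1. In crz1 its normalised CPM was 22.8, 7.88 and 8.74 at 0 h, 45.7, 34.3 and 25.4 at 12 h, 76.1, 47.3 and 48.9 at 48 h and 60.6, 71.1 and 84.8 at 72 h. The crz1 cnb1 libraries had 29.3, 14.4 and 16.4, then 40.1, 40.9 and 44.1, 50.4, 40.9 and 47.9 and 53.2, 55.1 and 53.9. In both strains every treated library was above every untreated one. The log2 change at 72 h was 2.46 ± 0.34 in crz1 (adjusted p = 1.49e-05) and 1.43 ± 0.33 in crz1 cnb1 (adjusted p = 0.00223), and 3.12 and 1.82 without replicate 1 of both untreated groups. At 12 and 48 h it was 1.42 ± 0.33 and 2.13 ± 0.33 in crz1, and 1.06 ± 0.32 and 1.21 ± 0.32 in crz1 cnb1, each called. Its close relative PCL2 went from 28.1, 17.8 and 19.5 at 0 h to 38.2, 36.6 and 42.6 at 72 h in crz1, with no overlap, a change of 0.84 ± 0.16 (adjusted p = 0.000277). In crz1 cnb1 PCL2 went from 34.3, 22.3 and 22.6 to 31.4, 37.9 and 32.7, and the groups overlapped, with a change of 0.37 ± 0.16 (adjusted p = 0.0752), which was 0.60 and called (adjusted p = 0.00049) without the 2 untreated libraries.

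CLN1 and CLN2 encode the G1 cyclins that, with Cdc28, start budding and the G1/S programme. CLN1 in crz1 was at 88.8, 91.7 and 93.8 at 0 h, 84.7, 95.4 and 113 at 12 h, 93.5, 118 and 130.3 at 48 h and 115, 146 and 184 at 72 h. The levels in crz1 cnb1 were 97.5, 94.2 and 98.5, then 60.3, 76.7 and 62.7, 66.6, 71.6 and 71.4 and 83.8, 86.9 and 91.4. The untreated libraries of both strains lay within 88.8 to 98.5, and replicate 1 did not stand apart for this gene. CLN1 rose in crz1 by 72 h (0.70 ± 0.15, adjusted p = 0.000718). It fell in crz1 cnb1 at 12 h (-0.54 ± 0.15, adjusted p = 0.0126) and at 48 h (-0.47 ± 0.15, adjusted p = 0.0236), and at 72 h its difference was -0.15 ± 0.15 (adjusted p = 0.446), with all 3 libraries below the untreated ones of the same strain. The fall at 12 h was not called without crz1 cnb1 12 h replicate 1, and that at 48 h without any 1 of 0 h replicate 2 or 3 or 48 h replicate 1, 2 or 3.

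CLN2 in crz1 was at 141, 104 and 103 untreated, 178, 176 and 172 at 12 h, 195, 116 and 135 at 48 h and 261, 242 and 292 at 72 h. The 72 h libraries were all above those of every other crz1 group. In crz1 cnb1 the CLN2 levels were 161, 109.5 and 107, 144, 175 and 130.3, 106, 92.8 and 106 and 148, 153 and 134. There the libraries of 12 and 72 h overlapped the untreated ones, and those of 48 h lay just below them. CLN2 rose in crz1 at 12 h (0.59 ± 0.18, adjusted p = 0.0144) and at 72 h (1.19 ± 0.18, adjusted p = 3.08e-05). Its call at 12 h was lost without 0 h replicate 2 or 3 and with limma on log2(TPM + 1). The difference in crz1 cnb1 at 72 h was 0.20 ± 0.18 (adjusted p = 0.381).

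CLB6, 1 of the 2 B-type cyclins that start S phase, was low, at 9.22, 4.11 and 3.91 normalised CPM in untreated crz1. It rose in crz1 at 48 h to 10.7, 12.2 and 11.2 and at 72 h to 15.6, 10.5 and 11.3 (1.11 ± 0.31, adjusted p = 0.00634). The untreated crz1 cnb1 libraries had 12.1, 7.21 and 7.97 and the treated ones 7.19, 10.1 and 8.18 at 72 h, a difference of -0.10 ± 0.30 (adjusted p = 0.821). Its partner CLB5 was called at no time in either strain, with 0.28 ± 0.17 and -0.12 ± 0.17 at 72 h, though without the 2 untreated libraries its change in crz1 was 0.51 and called (adjusted p = 0.00855). SWI4, the DNA-binding subunit of SBF, stood at 0.34 ± 0.27 and 0.63 ± 0.27 at 72 h and was not called against 0 h in the main fit. With the replicate number as a block SWI4 was higher in crz1 cnb1 at 48 and 72 h. TOS4, a target of SBF, rose at 72 h in crz1 (0.47 ± 0.18, adjusted p = 0.0376).

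**Figure D2:**
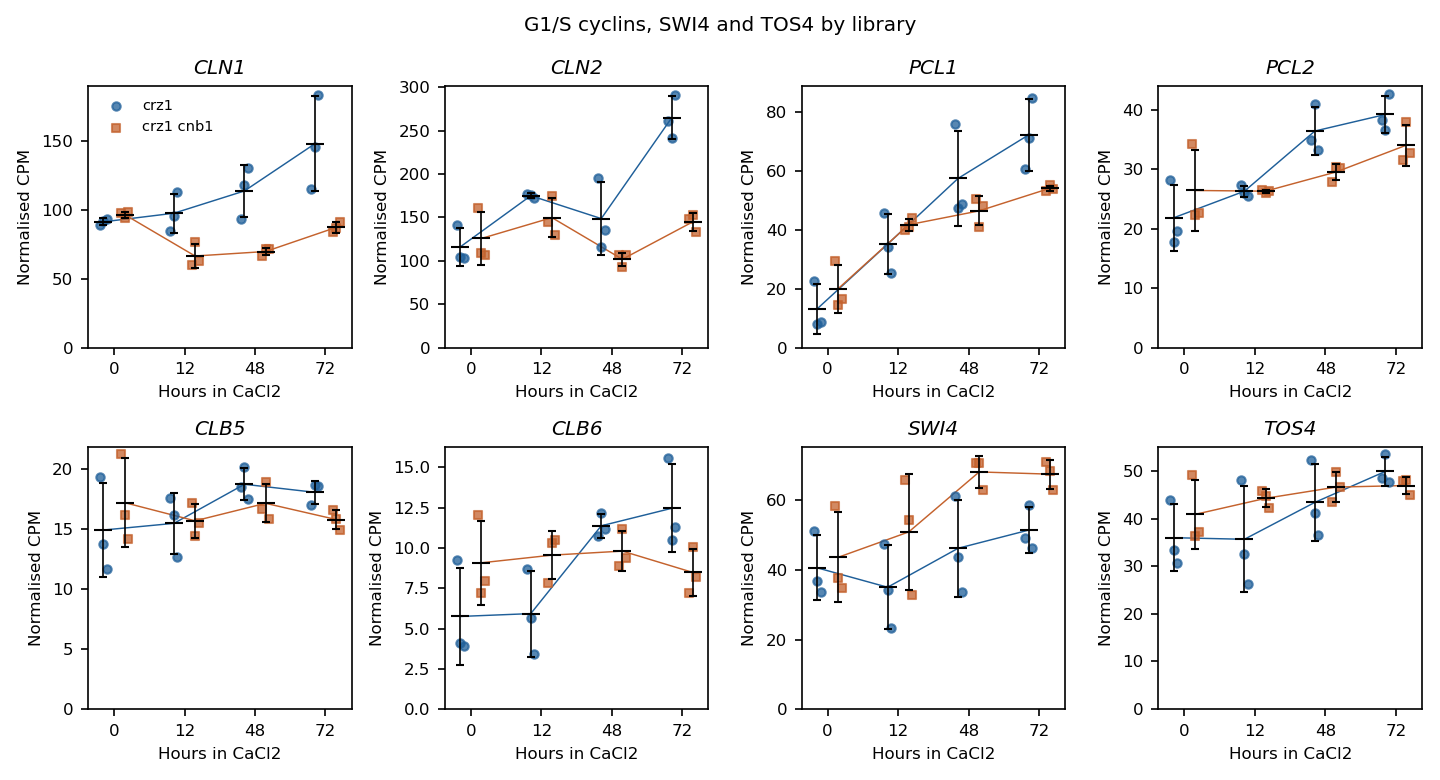
Normalised CPM (vertical axes, from 0) of the 8 genes of the cyclin group against hours in CaCl2, with circles for crz1 libraries, squares for crz1 cnb1 libraries, black bars for mean and SD of 3 libraries and lines joining the means. CLN1 and CLN2 end at 115 to 184 and 242 to 292 in crz1 and at 83.8 to 91.4 and 134 to 153 in crz1 cnb1, while PCL1 is above its untreated libraries at each time in both strains.

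The genes of deoxyribonucleotide supply moved in opposite directions. Ribonucleotide reductase, which makes deoxyribonucleotides, is built from a large subunit, encoded by RNR1, and a small subunit, encoded by RNR2 and RNR4. RNR1 in crz1 was at 147, 58.2 and 53.5 normalised CPM untreated, 458, 311 and 215 at 12 h, 510.2, 179.7 and 222 at 48 h and 518, 472 and 549 at 72 h. Levels in crz1 cnb1 were 172, 78.3 and 76.6, 385, 343 and 302, 341, 233 and 311 and 348, 377 and 492. Every treated library was above every untreated one in its strain, and the 48 h libraries of crz1 were spread widely, with replicate 1 highest. The change at 72 h was 2.57 ± 0.44 in crz1, a 5.94-fold rise (adjusted p = 0.000144), and 1.89 ± 0.43 in crz1 cnb1, 3.72-fold (adjusted p = 0.00221). RNR1 also rose at 12 h (1.92 ± 0.43 and 1.65 ± 0.42) and at 48 h (1.81 ± 0.43 and 1.44 ± 0.42). In crz1 cnb1 the call at 12 h was lost without 0 h replicate 2 or 3, and that at 48 h without either of these or 48 h replicate 1 or 3. Without replicate 1 of both untreated groups the changes at 72 h were 3.20 and 2.39.

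RNR2 in crz1 fell from 441, 468 and 515 to 243, 329 and 373 at 12 h, 216, 198 and 244 at 48 h and 313, 255 and 274 at 72 h. The fall in crz1 cnb1 was from 434, 479 and 549 to 252, 320.3 and 414, 169.8, 177 and 179.5 and 200.4, 201 and 217. The treated and untreated libraries did not overlap at any time. In crz1 cnb1 the call at 12 h was lost without 0 h replicate 3 or 12 h replicate 1 or 2. At 72 h the changes were -0.76 ± 0.16 (adjusted p = 0.000807) and -1.24 ± 0.16 (adjusted p = 7.74e-06). RNR4 fell from 624, 675 and 659 to 363, 311 and 286 in crz1 by 72 h and from 682, 739 and 725 to 234, 277 and 244 in crz1 cnb1. Its changes were -1.03 ± 0.13 (adjusted p = 5.82e-06) and -1.51 ± 0.13 (adjusted p = 7.5e-08), and it was called lower at 12 and 48 h as well in both strains. CDC21, which encodes the thymidylate synthase, rose by 0.54 ± 0.19 in crz1 and 0.85 ± 0.19 in crz1 cnb1 at 72 h.

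Per length, on the deposited TPM scale, RNR4 (524 ± 25.0 TPM, SD, n = 3) and RNR2 (329 ± 18.1) led the 37 genes in untreated crz1, and RNR1 stood at 27.1 ± 16.9. The ratio of RNR1 to RNR2 in TPM was 0.150, 0.0560 and 0.0468 in the 3 untreated crz1 libraries and 0.744, 0.833 and 0.901 at 72 h. The crz1 cnb1 libraries had 0.178, 0.0737 and 0.0628 untreated, and 0.781, 0.845 and 1.02 at 72 h. The ranges of untreated and treated libraries did not overlap, and the lowest treated value was 0.259, in crz1 12 h replicate 3.

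**Figure D3:**
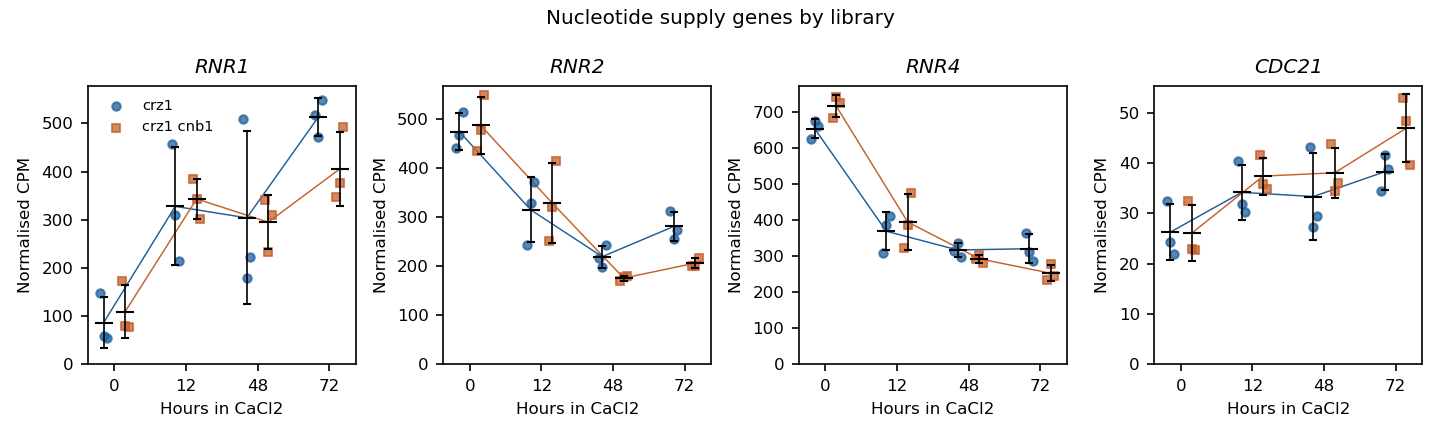
Normalised CPM (vertical axes, from 0) of RNR1, RNR2, RNR4 and CDC21 against hours in CaCl2, with circles for crz1 libraries, squares for crz1 cnb1 libraries, black bars for mean and SD of 3 libraries and lines joining the means. RNR1 rises from 53.5 to 172 in untreated libraries to 348 to 549 at 72 h, while RNR2 and RNR4 fall in both strains.

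Among the polymerase, primase, ligase and nuclease genes, 2 of 8 (25.0%) were called higher in crz1 at 72 h, near the 22.6% of all genes, and 3 of 8 (37.5%) in crz1 cnb1, against 20.1%, with group medians of 0.24 and 0.44. POL12, the regulatory subunit of DNA polymerase alpha, was at 27.8, 19.5 and 16.2 in untreated crz1 and 44.1, 46.8 and 43.9 at 72 h, with no overlap. Levels in crz1 cnb1 went from 33.4, 20.1 and 21.4 to 46.9, 48.2 and 40.4. It rose by 1.09 ± 0.23 (adjusted p = 0.000971) and 0.86 ± 0.23 (adjusted p = 0.00731). POL1, the catalytic subunit of the same enzyme, rose in crz1 cnb1 (adjusted p = 0.0153), from 40.4, 22.6 and 21.1 to 56.7, 58.0 and 53.7. In crz1 its difference was 0.71 ± 0.31 (adjusted p = 0.0684), called without the 2 untreated libraries at 1.07. CDC9, the DNA ligase of lagging strand synthesis, went from 28.6, 22.1 and 16.2 to 38.8, 40.0 and 32.8 in crz1 (0.74 ± 0.24, adjusted p = 0.0155) and from 31.6, 19.6 and 18.4 to 46.6, 46.0 and 41.1 in crz1 cnb1 (0.94 ± 0.24, adjusted p = 0.00408). PRI2, the large primase subunit, was called at 48 h in crz1 cnb1 (0.44 ± 0.13, adjusted p = 0.014). POL2, the catalytic subunit of polymerase epsilon, stood at 0.44 ± 0.26 and 0.59 ± 0.26 at 72 h. The sliding clamp gene POL30, the small primase subunit gene PRI1 and the flap nuclease gene RAD27 had differences of -0.20 to 0.28 at 72 h in the 2 strains. In the main fit these 4 genes were called at no time. With the replicate number as a block, POL2 was higher at 72 h in both strains and at 12 h in crz1 cnb1. At 48 h RAD27 was then higher in crz1 cnb1 and PRI1 lower in crz1.

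Of the 3 subunits of RPA, the complex that coats single-stranded DNA, only RFA2 was called higher, at all 3 times and in both strains. RFA2 was at 42.3, 35.5 and 33.5 in untreated crz1, 50.6, 48.5 and 44.1 at 12 h, 56.6, 55.8 and 51.7 at 48 h and 59.8, 56.0 and 53.0 at 72 h. Libraries of crz1 cnb1 had 41.2, 35.3 and 30.6, 53.3, 52.2 and 50.1, 51.4, 49.5 and 54.0 and 54.5, 54.1 and 49.9. Treated libraries were above untreated ones throughout, with changes of 0.60 ± 0.11 (adjusted p = 0.000174) and 0.56 ± 0.11 (adjusted p = 0.00043) at 72 h. RFA1 fell in crz1 at 12 h (-0.52 ± 0.17, adjusted p = 0.0216), from 76.1, 64.4 and 59.3 to 51.2, 45.4 and 42.3, a call that was lost when 0 h replicate 1, 12 h replicate 2 or 12 h replicate 3 was left out, and stood at 0.01 ± 0.17 and 0.03 ± 0.17 at 72 h. RFA3 was called at no time in the main fit and stood at -0.09 ± 0.16 and -0.07 ± 0.16 at 72 h. With the replicate number as a block RFA3 was higher in crz1 at 48 h.

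Of the 7 helicase genes, 4 were called higher in crz1 at 72 h and 5 in crz1 cnb1 (57.1% and 71.4%, against 22.6% and 20.1% of all genes), with medians of 0.42 and 0.63. The Mcm2-7 proteins form the ring that unwinds DNA at replication forks, and Cdc45 is needed to activate it. MCM7 was at 56.4, 47.1 and 44.1 in untreated crz1, 84.8, 72.0 and 73.4 at 12 h, 87.7, 67.7 and 65.9 at 48 h and 94.3, 92.6 and 99.6 at 72 h. Libraries of crz1 cnb1 had 67.8, 52.9 and 53.5, 84.2, 86.4 and 90.6, 82.9, 58.8 and 72.4 and 107, 111 and 104. The groups overlapped at 48 h in crz1 cnb1 and at no other time. MCM7 rose by 0.96 ± 0.14 (adjusted p = 1.45e-05) and 0.89 ± 0.13 (adjusted p = 3.9e-05) at 72 h. MCM3 went from 81.9, 63.9 and 61.2 to 125, 126 and 131 in crz1 and from 90.2, 65.0 and 61.6 to 134, 133 and 134 in crz1 cnb1, changes of 0.88 ± 0.16 and 0.89 ± 0.16 (adjusted p = 0.000153 and 0.000206). MCM4 rose by 0.71 ± 0.17 and 0.82 ± 0.17 and MCM6 by 0.42 ± 0.17 and 0.63 ± 0.17. MCM2 rose in crz1 cnb1 (0.49 ± 0.16, adjusted p = 0.0204), with 0.29 ± 0.16 in crz1. MCM5 and CDC45 were called at no time in the main fit, and their differences at 72 h were -0.13 ± 0.10 and 0.13 ± 0.25 in crz1 and 0.19 ± 0.10 and 0.08 ± 0.24 in crz1 cnb1. No helicase gene was called lower in the main fit. With an offset for gene length, MCM5 was lower in crz1 at 12 and 72 h, and MCM6 lost its call in crz1 at 72 h.

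Of the cohesin and fork genes, CTF4, which links the helicase to polymerase alpha, rose in both strains. It went from 26.1, 21.6 and 20.9 to 41.4, 39.4 and 39.6 in crz1 (0.81 ± 0.18, adjusted p = 0.00136) and from 25.7, 21.9 and 20.3 to 44.4, 44.7 and 42.6 in crz1 cnb1 (0.96 ± 0.18, adjusted p = 0.000422). CTF18, of an alternative clamp loader, rose in crz1 cnb1 (0.67 ± 0.22, adjusted p = 0.0217), with 0.38 ± 0.22 in crz1. The cohesin genes SMC1, SMC3 and MCD1 were not called against 0 h in either strain in the main fit. With the replicate number as a block, SMC1 and SMC3 were higher in crz1 cnb1 at 48 and 72 h, and MCD1 in crz1 at 72 h. With an offset for gene length, SMC1 and SMC3 were lower in crz1 at 12 h. MCD1, which encodes the cohesin subunit made anew in each cycle, spread widely among untreated libraries, at 97.5, 39.9 and 37.5 in crz1 and 94.0, 56.0 and 49.0 in crz1 cnb1, and its difference in crz1 at 72 h was 0.59 ± 0.36, or 1.18 and called (adjusted p = 0.00588) without the 2 libraries labelled replicate 1. SMC3 stood at 0.01 ± 0.26 and 0.48 ± 0.26 at 72 h. MSH6, of mismatch repair, and RAD53, the checkpoint kinase gene, stood at 0.43 ± 0.28 and 0.32 ± 0.23 in crz1 and 0.65 ± 0.28 and 0.52 ± 0.23 in crz1 cnb1 and were not called. Without the 2 untreated libraries both were called higher at 72 h in both strains, MSH6 at 0.73 and 0.92 and RAD53 at 0.60 and 0.75. With the replicate number as a block, MSH6 was higher at 72 h in both strains and RAD53 in crz1 cnb1.

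Values without replicate 1 of both untreated groups follow for some of the other genes described above. They are log2 changes at 72 h, given for crz1 and then crz1 cnb1. Among the cyclins, CLN1 stood at 0.68 and -0.14, CLN2 at 1.35 and 0.43 (adjusted p = 0.051 in crz1 cnb1) and CLB6 at 1.63 and 0.16. RNR2 stood at -0.81 and -1.31, and RNR4 at -1.06 and -1.54. The rises of the replication genes were larger than with every library, at 1.33 and 1.12 for POL12, 0.96 and 1.23 for CDC9 and 0.71 and 0.68 for RFA2. The libraries left out held the highest untreated levels of these genes, so larger rises followed from that choice. MCM7 stood at 1.07 and 1.02, MCM3 at 1.03 and 1.08 and CTF4 at 0.92 and 1.06. CLN1, RNR2 and RNR4 moved by less than their standard errors. In the same setting CTF18 and MCM2 were also called higher at 72 h in crz1, and POL2, SMC1 and SWI4 in crz1 cnb1.

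**Figure D4:**
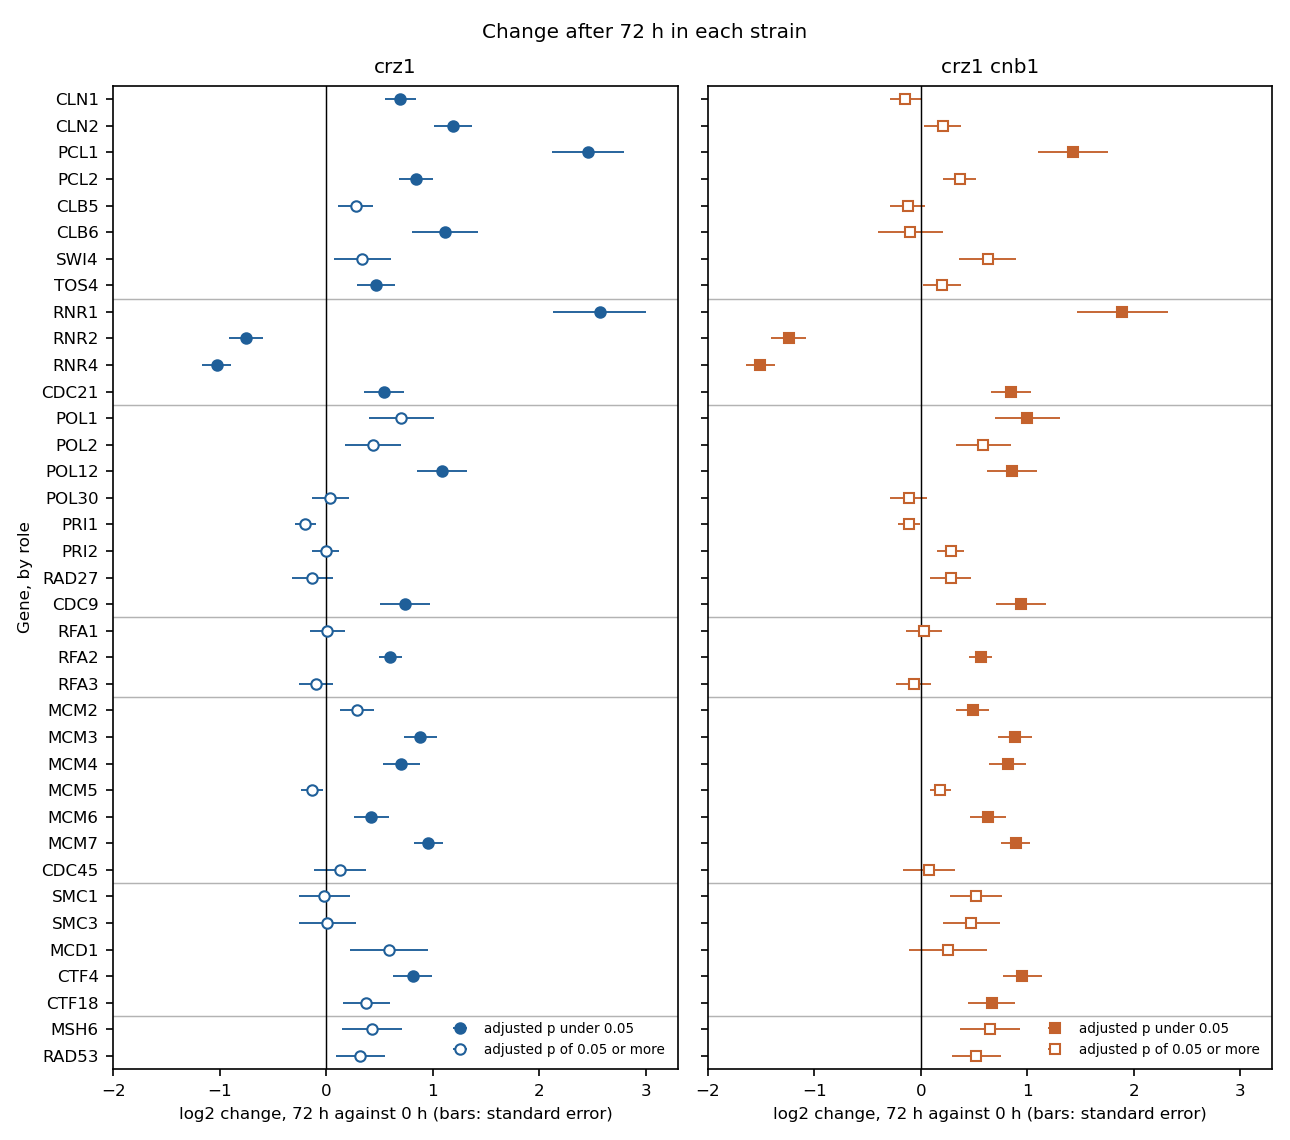
Change of each of the 37 genes from 0 h to 72 h (horizontal axes, log2, bars are standard errors, n = 3 libraries per group) in crz1 and crz1 cnb1, with filled symbols for an adjusted p under 0.05 in edgeR's quasi-likelihood test. RNR1 and PCL1 lie farthest to the right and RNR2 and RNR4 to the left in both strains. CLN1, CLN2, PCL2, CLB6 and TOS4 are filled in crz1 only, and POL1, MCM2 and CTF18 in crz1 cnb1 only. Filled against open is not a test of a difference between the strains.

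The strains were compared at each time, which sets cells with and without Cnb1 side by side in the absence of Crz1. Differences are crz1 cnb1 minus crz1. In untreated cells edgeR called 0 of 37 genes (1 at an unadjusted p under 0.05), and DESeq2 also called 0 (2 at an unadjusted p under 0.05), where 0.0164% of all genes were lower and 0.0% higher. At 12 h CLN1 was lower in crz1 cnb1 (-0.55 ± 0.15, adjusted p = 0.0374), where 2.09% of all genes were lower. At 48 h CLN1 was lower as well (-0.70 ± 0.15, adjusted p = 0.00775), where 3.05% of all genes were. At 72 h CLN1 (-0.76 ± 0.15, adjusted p = 0.00342) and CLN2 (-0.87 ± 0.18, adjusted p = 0.00547) were lower, where 2.81% of all genes were. The CLN1 libraries of the strains did not overlap at any of the 3 times. On log2(TPM + 1) with limma, CLN1 was called at 72 h only and CLN2 was not called. The call of CLN1 at 12 h was also lost without crz1 12 h replicate 2 or 3 or crz1 cnb1 12 h replicate 1 or 3, and that at 48 h without crz1 48 h replicate 3. Without crz1 48 h replicate 2, 2 genes were lower at 48 h.

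No gene was called higher in crz1 cnb1 at these times, where 1.64%, 2.07% and 3.35% of all genes were. At 12 h 35 of the 37 differences were above 0, with a median of 0.24 against 0.01 for all genes. The replicate numbers paired the libraries of the strains at 12 h, and with the replicate block CDC9, RFA1, SMC1 and SMC3 were called higher there, beside CLN1 lower. Without crz1 12 h replicate 1, 4 genes were called higher at 12 h. Without crz1 48 h replicate 1, the library that stood apart, 11 genes were called higher at 48 h, namely CDC9, CTF4, MCM4, MCM5, MCM6, POL1, POL2, RFA1, SMC1, SMC3 and SWI4. Calls over all genes, higher and lower together, also rose with the block at 12 h, from 227 to 457. For the fits with a library left out the share of all genes is not given, so those counts cannot be read as particular to the 37.

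Whether the change from 0 h differed between the strains was tested directly. At 72 h the difference of changes was -0.84 ± 0.21 for CLN1 (adjusted p = 0.0553), -0.99 ± 0.25 for CLN2 (adjusted p = 0.0637), -1.21 ± 0.43 for CLB6 (adjusted p = 0.187) and -1.03 ± 0.46 for PCL1 (adjusted p = 0.312). edgeR called 0 of 37 (8 at an unadjusted p under 0.05, 0.0821% of all genes were lower and 0.509% higher), DESeq2 called CLN1 and CLN2, and limma on log2(TPM + 1) called 0. Without crz1 0 h replicate 1 edgeR called 3 lower, and without crz1 72 h replicate 1 it called 1. In the joint test over 12, 48 and 72 h edgeR called 0 of 37 (3 at an unadjusted p under 0.05, 0.361% of all genes called) and DESeq2 called CLN1. Without crz1 48 h replicate 1 edgeR called 2. For 7 of the 8 cyclin-group genes the difference of changes was below 0, with a median of -0.66, against 0.02 for all genes. Untreated levels enter this difference. At 0 h all 8 were higher in crz1 cnb1 than in crz1, none called, with a median of 0.19 against -0.01 for all genes.

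Within the treated time course, 34 of the 37 genes in crz1 were higher at 72 h than at 12 h, with a median of 0.32 against 0.00 for all genes. Only CLN1 was called (0.60 ± 0.15, adjusted p = 0.0357), where 1.13% of all genes were higher and 0.755% lower. That call was lost when 12 h replicate 2, 72 h replicate 2 or 72 h replicate 3 was left out, and leaving out 12 h replicate 1 gave 2 calls. CLN2, CLB6 and PCL1 stood at 0.60 ± 0.18, 1.07 ± 0.31 and 1.04 ± 0.32 (adjusted p = 0.0904, 0.0801 and 0.104). In crz1 cnb1 the median was 0.13, and RNR2 (-0.67 ± 0.16, adjusted p = 0.0227) and RNR4 (-0.65 ± 0.13, adjusted p = 0.0109) were lower at 72 h than at 12 h, where 2.33% of all genes were lower and 2.1% higher. Both calls were lost without crz1 cnb1 12 h replicate 3 or 72 h replicate 1, and 1 was lost without 12 h replicate 2 or 72 h replicate 2 or 3.

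At 12 and 72 h the median change over all tested genes was higher in classes of longer genes, and of the 37 genes 11 had a coding length over 2000 and up to 3000 bp and 7 one over 3000 bp. In crz1 at 72 h the median change of all genes went from -0.25 for coding lengths up to 500 bp to 0.33 over 3000 bp, and in crz1 cnb1 from -0.15 to 0.36. At 12 h it went from -0.15 to 0.23 in crz1 and from -0.16 to 0.32 in crz1 cnb1. At 48 h there was no such climb, with 0.28 for the shortest, -0.03 for the middle and 0.02 for the longest class in crz1, and 0.18, 0.00 and 0.19 in crz1 cnb1. A coding length was known for 93.8% of tested genes. Set against the median of their own length class, 28 of the 37 genes were above it in crz1 at 72 h, by 0.22 at the median, and 29 in crz1 cnb1, by 0.26. All 16 genes called higher in crz1 and all 14 in crz1 cnb1 were above their class median. Every called rise at 72 h was larger than the highest class median of its strain. This outcome was thus fixed in advance and says nothing about the part of gene length. With an offset for gene length, an alternative chosen after seeing the data, 15 and 14 genes were called higher at 72 h, and the median change of the 37 was 0.18 in crz1 and 0.24 in crz1 cnb1. MCM6 lost its call in crz1, where MCM5 was called lower. In crz1 cnb1 MCM2 lost its call and PCL2 gained one. The share of all genes called with the offset is not given. At 12 h in crz1 that median was -0.03 with the offset, and 18 of 37 were above their class median.

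**Figure D5:**
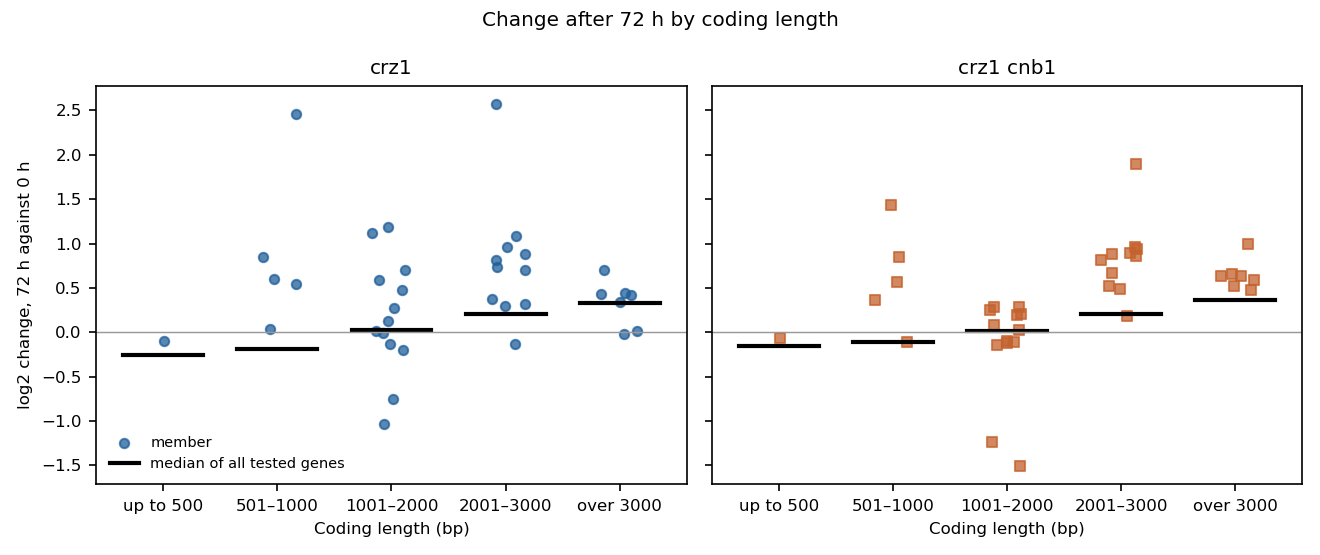
Change from 0 h to 72 h (vertical axis, log2) of the 37 genes as points by coding length class (horizontal axis, bp), with black lines for the median of all tested genes in each class, in crz1 and crz1 cnb1; points are spread sideways only for legibility. The lines climb from -0.25 to 0.33 in crz1 and from -0.15 to 0.36 in crz1 cnb1, and RNR1, PCL1, RNR2 and RNR4 lie far from them.

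Matches upstream were found both among genes that rose and among genes that did not. Of the 16 genes higher in crz1 at 72 h, 5 (31.2%) held an MCB in the 300 bases, and of the other 21, 10 (47.6%) did. For SCB the shares were 37.5% and 28.6%. RNR1 has 4 MCBs at 492, 442, 371 and 306 bases before its start, all outside the 300-base window, and an SCB at 242. RNR2 has an SCB at 235 bases. RNR1 and RNR2 moved in opposite directions.

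Other genes of the same pathways were counted from lists at 72 h, to be read against the 22.6% of all genes called higher in crz1 and the 20.1% in crz1 cnb1. Of 45 other replication genes, 8 rose (17.8%) and 3 fell in crz1 and 9 rose and 3 fell in crz1 cnb1, shares at or below those of all genes, with medians of 0.09 and 0.19. CAC2, a subunit of a chromatin assembly factor, rose from 16.9 ± 6.02 to 42.1 ± 2.30 normalised CPM in crz1 (1.32 ± 0.18), and RNH201, the catalytic subunit of ribonuclease H2, rose by 0.80 ± 0.14. Of 21 G1/S regulators, 8 rose (38.1%) and 2 fell in crz1 and 7 rose (33.3%) and 1 fell in crz1 cnb1. CLN3, the cyclin that acts upstream of SBF and MBF, rose from 193 ± 39.0 to 556 ± 128 in crz1 (1.53 ± 0.24), and STB1, which binds Swi6, rose from 23.0 ± 3.43 to 65.0 ± 12.4. Of 37 other G1/S targets, 12 rose (32.4%) and 1 fell in crz1 and 10 rose (27.0%) and 4 fell in crz1 cnb1. Among them GIC1, which acts in polarity, rose by 1.22 ± 0.12 in crz1, and TOS6 by 2.18 ± 0.29.

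Lists of other cell cycle phases were counted the same way, against 22.6% and 20.1% of all genes. Of 15 G2/M genes, 13 rose in crz1 (86.7%) and 9 in crz1 cnb1 (60.0%) at 72 h, with medians of 0.63 and 0.45, including the kinase gene KIN3 (0.92 ± 0.13 in crz1) and HST3, a histone deacetylase gene (0.72 ± 0.11). Of 14 M/G1 and daughter cell genes, 6 and 7 rose in crz1 and crz1 cnb1, among them the cell wall gene PIR1 (0.94 ± 0.22) and EGT2, which acts in cell separation (0.90 ± 0.21). Of 10 histone genes, whose RNA peaks in S phase, 1 rose and 3 fell in crz1, and 1 rose and 0 fell in crz1 cnb1, shares of higher genes below those of all genes. Linker histone gene HHO1 rose (0.74 ± 0.12) and HHF2, for histone H4, fell (-0.53 ± 0.14) in crz1. The core histone genes come in near-identical copies, so their counts are uncertain. The part of cell cycle position in the changes of the 37 genes was not tested.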

How the data were processed

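Per the submitters' processing notes, reads were counted per gene with featureCounts against build R64 and DESeq2 was used; for the aligner, the versions and whether strand was used, nothing is given in these sources, so reads of a gene and of an antisense partner cannot be told apart. The deposited counts were whole numbers per gene, with no normalization by the authors visible in the values. The deposited TPM values, transcripts per 1e6 made by the authors, cover 6737 of the 7126 genes. From the counts, 24 libraries were fitted together with edgeR 4.0.16 (quasi-likelihood test, robust, TMM factors, 1 coefficient per group, R 4.3.3), with low-count genes removed by edgeR's default filter and Benjamini-Hochberg adjustment over 6089 genes at 0.05. Alternatives used DESeq2 1.42.0, limma 3.58.1 on log2(TPM + 1) or log2(TPM + 0.1) of the deposited TPM, other size factors, no filter, the replicate number as a block, a gene-length offset, and each library left out. The replicate numbers paired the libraries where same-numbered deviations all correlated over 0.1, which held for crz1 at 12 h against 0 h (lowest 0.114) and for the strains at 0 h (0.56) and 12 h (0.169). In counts simulated for 6060 genes, edgeR recovered 53.7%, 88.1% and 95.4% of changes of 1.5-, 2- and 4-fold for crz1 at 72 h against 0 h, with 5.42% false calls, 47.8%, 85.1% and 93.8% for the strains at 72 h, and 17.9%, 67.2% and 87.7% for the difference of changes at 72 h. The simulation drew every count independently and changed a small share of genes, in crz1 72 h only. Shifts shared by many genes of a library were not in it, so its shares need not hold for these data. The genes, lists and tests were chosen with earlier results of these data known. Named were, per role group, the 3 genes with the smallest p over all groups and those called between strains, and per other list the 2 with the smallest p in crz1 at 72 h; further genes of the 37 are named to account for all of them. Total counts of 21582317 to 22016465 per library limit the precision of the low genes. No 2 libraries of the same group agreed within sampling noise.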

Additional observations from a re-analysis of the deposited data

How the results depend on the processing

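The tally of named genes took only the 70 results already called in the main fit. A turn of direction was thus unlikely from the start, and calls gained under an alternative were not counted. Of 1190 comparisons with an alternative, 1032 kept direction and call, 158 lost the call and 0 turned direction. The median change of the 37 in crz1 did turn below 0, as the values in the report show, at 12 h on both TPM scales, with the length offset and when 0 h replicate 3 or 12 h replicate 1 was left out, and at 48 h on both TPM scales. Other size factors and no filter on low counts moved no count of called genes by over 1.5 times. With only the compared libraries fitted, genes higher than at 0 h were 3 and 1 in crz1 at 12 and 48 h, 0 and 1 were higher and none of the RNR calls was made (0 lower in crz1 cnb1) at 72 h against 12 h, 0 and 0 were lower between strains at 12 and 48 h, 5 higher and 4 lower at 72 h, and 2 lower in the difference of changes. Limma on log2(TPM + 1) and on log2(TPM + 0.1) gave the same counts: 2 and 2 higher in crz1 at 12 and 48 h, 5 lower at 48 h, 1 and 3 higher in crz1 cnb1 at 12 and 48 h, 1 higher and 0 lower in crz1 cnb1 at 72 h against 12 h, and 0, 0 and 1 lower between strains at 12, 48 and 72 h. DESeq2 called 5 higher in crz1 at 72 h against 12 h, 2 lower between strains at 48 h, 2 lower in the difference of changes and 1 in the joint test. The cause of these shifts was not tested. Counts in this section are of the 37 genes only, without the share of all genes called under each alternative.

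With the replicate block over all libraries, 12 were higher and 4 lower in crz1 at 48 h, 15 and 19 higher in crz1 cnb1 at 12 and 48 h, 9 and 1 higher at 72 h against 12 h, 4 and 4 higher between strains at 12 and 48 h, 2 lower at 48 h, 2 lower in the difference of changes and 1 in the joint test. With the block within strain, 4 were lower in crz1 at 48 h, 15 and 18 higher in crz1 cnb1, 7 and 1 higher at 72 h against 12 h, 0 lower between strains at 12 h, 2 lower in the difference of changes and 1 in the joint test. Beyond the 3 comparisons that met the limit, some same-numbered correlation was not over 0.1, and the libraries were not treated as paired. The strains at 48 h came closest to the limit, with 0.662, 0.508 and 0.0954 for replicates 1, 2 and 3.

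Chosen after seeing the data, leaving out replicate 1 of both untreated groups gave 17 higher in crz1 at 48 h, 15 and 19 in crz1 cnb1 at 12 and 48 h, 5 and 1 at 72 h against 12 h, and 2 lower between strains at 48 h. The gene-length offset, chosen likewise, gave 6 and 4 lower in crz1 at 12 and 48 h, 2 higher in crz1 at 72 h against 12 h, 1 higher between strains at 12 h, 2 lower at 48 h and 2 lower in the difference of changes. Offset and block together gave 7, 4 and 4 lower in crz1 at the 3 times, 14 higher in crz1 and 17 in crz1 cnb1 at 48 h, 9 and 1 higher at 72 h against 12 h, 8, 4 and 2 higher between strains, 2 lower at 48 h, 2 lower in the difference of changes and 3 in the joint test.

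With each library left out, genes higher than at 0 h numbered 3 to 10, 5 to 16 and 12 to 22 in crz1 and 2 to 12, 1 to 16 and 11 to 19 in crz1 cnb1, and lower ones 2 to 4, 2 to 4 and 2 in crz1 and 1 to 3, 2 to 3 and 2 in crz1 cnb1. At 72 h against 12 h, 0 to 2 were higher and 0 lower in crz1, and 0 higher and 0 to 2 lower in crz1 cnb1. Between strains 0, 0 to 4, 0 to 11 and 0 were higher and 0, 0 to 1, 0 to 2 and 2 lower; the difference of changes gave 0 higher and 0 to 3 lower, and the joint test 0 to 2.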
